A study of Mus musculus with 107 samples.

Results

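GABA, the main inhibitory transmitter of the brain, is made, packaged, recaptured and degraded by a small set of proteins, and 6 of their genes are described here across the cell types of the mouse central nervous system. They are Gad1 and Gad2 (glutamate decarboxylases), Slc32a1 (the vesicular carrier), Slc6a11 and Slc6a13 (GABA carriers of the plasma membrane) and Abat (GABA transaminase). They were found by symbol among 18193 genes that have a probe set with a single symbol on the array. Where a gene had several such probe sets, the one with the highest mean over all arrays stood for it. The study used translating ribosome affinity purification (TRAP): ribosomes are tagged in 1 cell type of a bacterial artificial chromosome (BAC) transgenic mouse and pulled down with the messages they carry. The RNA left behind, called unbound RNA, holds messages of all cells of the dissected tissue. There were 76 TRAP arrays of 24 populations, 17 neuronal and 7 glial, and 31 unbound arrays of 6 tissues.

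Each population was defined by the gene whose BAC drives the tag, and every TRAP group had 3 arrays except cortical astrocytes with 4 and Purkinje neurons with 6. In the cortex the drivers were etv1 (line TS88) for layer 5a neurons, glt25d2 (DU9) for layer 5b, ntsr1 (TS16) for layer 6, cck (GM391) for Cck+, cort (GM130) for Cort+ and pnoc (GM64) for Pnoc+ neurons. Cortical glia were tagged by aldh1l1 (JD130 and JD133) in astrocytes, cmtm5 (JD307) in mature oligodendrocytes and olig2 (JD97) in mixed oligodendroglia. The striatum had drd1 (CP73) and drd2 (CP101) medium spiny neurons and chat (DW167) cholinergic neurons, and the same chat line gave the cholinergic neurons of basal forebrain and spinal cord and the motor neurons of the brainstem. Cerebellar neurons were tagged by pcp2 (DR166 and DR168) in Purkinje, grm2 (JP77) in Golgi, lypd6 (JP48) in stellate and basket, neurod1 (JP241) in granule and grp (JP25) in unipolar brush neurons. Cerebellar glia were tagged by aldh1l1 (JD130), septin4 (DS152) in Bergmann glia, cmtm5 (JD307) and olig2 (JD97). Unbound RNA came from cortex (9 arrays), cerebellum (7), striatum (6) and basal forebrain, brainstem and spinal cord (3 each). All the mice carried a tagging transgene, those that gave the unbound RNA too. A driver marks every cell in which its BAC is active, so a population can hold more than the cell type it is named for, and most populations rest on 1 line. The labels give no age or sex.

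GABA neurons make their transmitter from glutamate. The enzyme from Gad1 works throughout the cell and supplies most of the brain's GABA, while that from Gad2 is concentrated at nerve endings. Slc32a1 loads GABA, and in some neurons glycine, into synaptic vesicles. After release GABA is taken up by carriers of the Slc6 family. Slc6a11 is known as an astrocyte carrier, and Slc6a13 is best known from the leptomeninges that wrap the brain. Abat, in mitochondria, removes the amino group of GABA and opens the path by which it is burned. Medium spiny, Purkinje, Golgi, stellate and basket neurons and most Cort+ and Pnoc+ cortical cells are textbook GABA neurons. Layer 5 and 6 projection neurons, granule and unipolar brush neurons use glutamate.

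The windows around the start of 4 of the genes are shown because Gad1, Gad2 and Slc32a1 were high in the same populations while Slc6a11 passed the expression minimum in another one. Each holds 250 bases before and 50 from the annotated start, from RefSeq on build GRCm38.p6, plus strand. They are Gad1 at chr2:70561879-70562178, Gad2 at chr2:22622077-22622376, Slc32a1 at chr2:158610508-158610807 and Slc6a11 at chr6:114130991-114131290. Capitals mark the letters of a TATA box (TATAAA) or a GC box (CCGCCC) on either strand.
Gad1: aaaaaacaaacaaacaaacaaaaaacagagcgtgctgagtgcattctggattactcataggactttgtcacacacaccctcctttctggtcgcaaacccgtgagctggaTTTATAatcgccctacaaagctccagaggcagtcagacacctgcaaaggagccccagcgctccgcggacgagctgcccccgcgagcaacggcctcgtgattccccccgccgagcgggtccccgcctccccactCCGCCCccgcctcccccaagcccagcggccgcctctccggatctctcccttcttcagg
Gad2: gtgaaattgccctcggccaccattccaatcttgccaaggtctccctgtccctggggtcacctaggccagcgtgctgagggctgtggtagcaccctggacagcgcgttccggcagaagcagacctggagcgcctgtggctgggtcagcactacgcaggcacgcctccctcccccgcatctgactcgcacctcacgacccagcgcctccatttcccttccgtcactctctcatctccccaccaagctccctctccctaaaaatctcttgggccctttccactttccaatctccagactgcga
Slc32a1: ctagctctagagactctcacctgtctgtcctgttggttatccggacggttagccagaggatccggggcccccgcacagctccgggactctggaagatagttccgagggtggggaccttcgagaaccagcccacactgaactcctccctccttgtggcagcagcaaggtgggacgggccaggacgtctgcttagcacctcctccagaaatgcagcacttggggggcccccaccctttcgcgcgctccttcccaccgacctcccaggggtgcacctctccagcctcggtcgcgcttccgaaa
Slc6a11: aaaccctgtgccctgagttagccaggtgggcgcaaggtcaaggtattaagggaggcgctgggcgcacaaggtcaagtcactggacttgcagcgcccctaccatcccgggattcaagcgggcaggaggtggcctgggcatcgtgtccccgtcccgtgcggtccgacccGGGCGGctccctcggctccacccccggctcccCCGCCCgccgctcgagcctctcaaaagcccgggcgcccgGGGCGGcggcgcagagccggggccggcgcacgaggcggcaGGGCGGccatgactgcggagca
The set of windows used here covered 5 of the 6 genes, with 3 windows for Slc6a13 and none for Abat. Besides those motifs, TAATTA (the core read by many homeodomain factors) and TGACGTCA (the cyclic AMP response element) were searched on both strands. The Gad1 window holds 1 TATAAA, on the minus strand 141 bases before the start, and 1 CCGCCC. The Slc6a11 window holds 4 copies of CCGCCC. No letters of the 4 motifs are in the Gad2 and Slc32a1 windows. Over all 32851 windows of this length TATAAA is in 13.6%, CCGCCC in 35.7%, TAATTA in 5.3% and TGACGTCA in 1.8%. CG steps number 21 in Gad1, 14 in Gad2, 17 in Slc32a1 and 32 in Slc6a11, against a median of 7 over all windows. A match describes the letters only.

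Levels are log2 intensities after scaling on spiked controls, and 6 (an intensity of 64) was taken as the expression minimum. A difference was called where the adjusted p was under 0.05 and the change at least 2-fold, with limma fitted over all arrays and Benjamini-Hochberg adjustment over all genes tested; every adjusted p given here is of that fit. Replicates were independent TRAP preparations per the study's design text. The p-values measure the spread left between preparations after the replicates of each group were normalized together. An error of the scaling that all arrays of a group share does not enter them, and the number of arrays limits the precision. Levels of different genes come from different probe sets and are not set against each other. Fewer cells of a type and less RNA per cell cannot be told apart in such samples.

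The fractions matched their names on most marker lists. All 8 astrocyte markers were at or above 6 in both astrocyte populations and Bergmann glia, with log2 sums from 16.22 to 16.65, above every neuronal population. Slc18a3 and Slc5a7 were above 6 in all 4 populations of the chat line, while the Chat probe set was under 6 in all of them. The glycine carrier Slc6a5 was above 6 in Golgi neurons. The 4 measured glutamatergic markers were all above 6 in Cck+ neurons, whose log2 sum was 13.55 to 13.67, against 11.21 to 12.50 in unbound cortex, and only 3 of 6 interneuron markers were. The layer 5a fraction stood apart: all 7 markers of microglia and macrophages were above 6 in it, with a log2 sum of 13.64 to 14.72, against 9.28 to 11.86 and 3 of 7 in unbound cortex. Its astrocyte markers summed to 15.35 to 15.56, against 13.47 to 14.53 in unbound cortex. In layer 5a 60.7% of all genes tested were called higher than in unbound cortex and 2.31% lower, the median gene differing by 1.31. In Golgi neurons the median gene differed by -1.96, and 4.41% were called higher and 70.4% lower. Under quantile normalization these medians were 0.09 and 0.07. Results that rest on layer 5a are therefore also given without it, and differences are also given relative to the median gene.

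Gad1 was present in every population. Its mean level ran over the 24 TRAP groups from 8.11 to 15.45 with a median of 12.65, and all 24 lay above 6. The highest was in Drd1+ medium spiny neurons, with 15.48, 15.47 and 15.40 on the 3 arrays. Purkinje neurons followed with a lowest value of 14.92, a median of 15.31 and a highest of 15.37, and Drd2+ medium spiny neurons with 15.17, 15.17 and 15.35. Purkinje and Drd2+ arrays overlapped each other, while every Drd1+ array lay above both.

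The 3 layer-specific cortical fractions and stellate and basket neurons came next, the latter lying between layers 6 and 5b in mean. Layer 5a neurons had 15.12, 15.00 and 14.93, layer 6 neurons had 14.94, 14.79 and 15.03, and layer 5b neurons had 14.52, 14.49 and 15.02. Stellate and basket neurons had 14.84, 14.83 and 14.93, within the range of layer 6. Golgi neurons (14.37, 14.88 and 14.52) and Cort+ neurons (14.56, 14.48 and 14.60) overlapped layer 5b but not layer 5a. Of the 23 neighbouring pairs in the order of Gad1 means, 15 overlapped and 8 did not.

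Lower on the scale stood striatal cholinergic neurons at 13.57 ± 0.19 (SD, n = 3) and Pnoc+ neurons at 13.34 ± 0.01 (SD, n = 3). Mature oligodendrocytes had 12.72 ± 0.73 in cerebellum and 12.59 ± 0.37 in cortex (SD, n = 3 each), above granule neurons at 11.05 ± 0.55 and unipolar brush neurons at 10.52 ± 0.33 (SD, n = 3 each). Cck+ neurons had 9.52, 9.55 and 9.74. Cortical astrocytes had 7.56, 9.15, 7.71 and 9.08, and spinal cholinergic neurons 7.60, 8.79 and 7.94, the lowest mean. The astrocyte arrays fell into a low and a high pair, and each pair held 1 array of each line.

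Gad2 split the populations more sharply. It lay above 6 in 16 of 24 populations, with a highest mean of 11.88 and a lowest of 1.81. Drd1+ medium spiny neurons had 11.95, 11.95 and 11.73, layer 5a neurons had 11.38, 11.39 and 11.52, and Drd2+ medium spiny neurons had 11.26, 11.25 and 11.33. These 3 groups overlapped neither each other nor any population below them.

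The 5 populations next in order lay close together. Layer 5b neurons averaged 10.76 ± 0.01, stellate and basket neurons 10.72 ± 0.05, Pnoc+ neurons 10.63 ± 0.12, layer 6 neurons 10.51 ± 0.18 and basal forebrain cholinergic neurons 10.42 ± 0.08 (SD, n = 3 each). Purkinje neurons, near the top for Gad1, ranked 12 of 24 for Gad2, with a lowest value of 8.73, a median of 8.95 and a highest of 9.11. The 8 populations under 6 were both astrocyte groups, Bergmann glia, cerebellar mixed oligodendroglia, granule, unipolar brush, Cck+ and spinal cholinergic neurons, between 1.81 and 3.52. The largest gap between neighbours, 2.70, separated cortical mixed oligodendroglia (5.83, 6.05 and 6.77) from cortical astrocytes (3.40, 3.38, 3.41 and 3.87). In 8 populations, Golgi neurons (9.77 on each array) among them, the 3 arrays gave identical Gad2 values, so their spread of 0 is no measure of precision.

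Slc32a1 lay above 6 in 17 of 24 populations, with means from 3.09 to 13.13. It was highest in cerebellar interneurons: stellate and basket neurons had 13.15, 13.15 and 13.08 and Golgi neurons had 12.57, 13.08 and 12.78. Pnoc+ neurons had 12.04, 12.23 and 12.24. The highest Golgi array overlapped the stellate and basket range, and every Pnoc+ array lay below both.

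Drd1+ medium spiny neurons had 12.16, 11.87 and 11.93, Drd2+ 11.78, 11.65 and 12.001, layer 5a 11.97, 11.47 and 11.91, and Cort+ 11.71, 11.43 and 11.66. Neighbours in this order overlapped, while no Cort+ array reached the Drd1+ range. Purkinje neurons had a lowest value of 11.17, a median of 11.54 and a highest of 11.79. Among the neurons of the chat line Slc32a1 was lower throughout, at 8.83 ± 0.15 in brainstem motor neurons, 8.63 ± 0.05 in basal forebrain, 7.71 ± 0.65 in striatum and 7.46 ± 0.63 in spinal cord (SD, n = 3 each). Mature oligodendrocytes had 9.44, 9.496 and 8.06 in cerebellum and 8.98 on each array in cortex. Cortical astrocytes had the lowest mean, with 2.81, 3.39, 2.81 and 3.33.

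**Figure D1:**
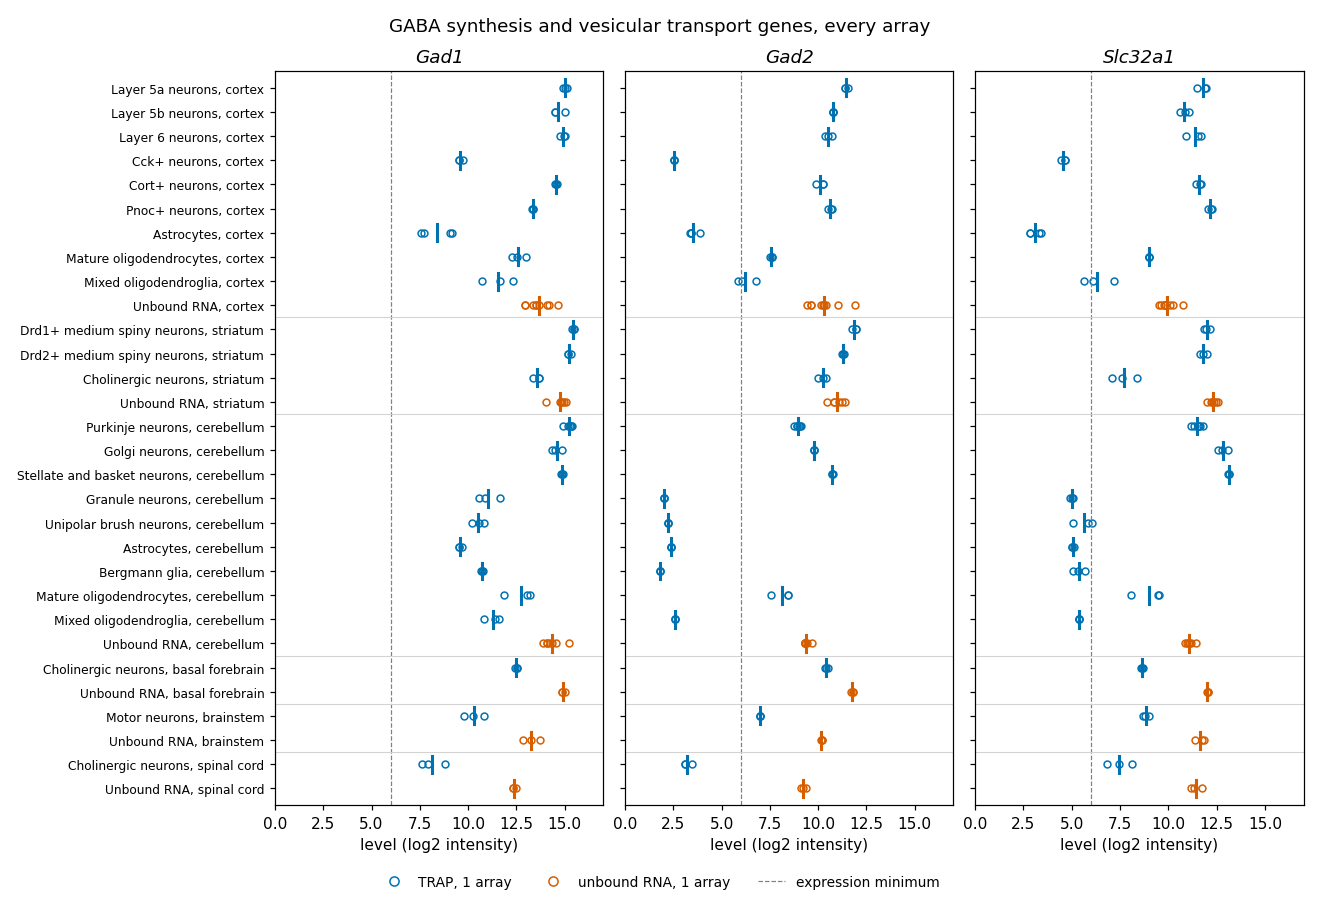
Levels of Gad1, Gad2 and Slc32a1 (log2 intensity, x axis) in every array, with TRAP populations above the unbound RNA of their tissue (rows); circles are arrays, bars are group means and the dashed line is the expression minimum of 6. Gad1 lay above 6 in all 24 populations, Gad2 in 16 and Slc32a1 in 17.

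The 3 genes were high in the same populations. Over the 24 population means Pearson's r was 0.88 between Gad1 and Gad2, 0.87 between Gad1 and Slc32a1, and 0.90 between Gad2 and Slc32a1. These are descriptions over means that share arrays and scaling. The order differed in places. Purkinje neurons ranked 2 for Gad1, 12 for Gad2 and 8 for Slc32a1. The cholinergic neurons of basal forebrain and striatum ranked 8 and 9 for Gad2 but 14 and 15 for Slc32a1.

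Slc6a11, the astrocyte carrier, passed 6 in a single population, cortical astrocytes, with 7.02, 6.47, 7.53 and 7.98. All 4 arrays, 2 of each line, lay above the minimum. In cerebellar astrocytes, tagged by the same driver and line JD130, all 3 arrays read 2.06, and in Bergmann glia all read 1.81. Every other TRAP population lay between 1.55 and 3.53. Among unbound tissues it was highest in brainstem, with 4.93, 5.52 and 5.81, and lay between 2.12 and 2.16 in unbound cortex. No unbound array reached 6, so below it the order of tissues is not secure.

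Slc6a13 passed 6 in 4 populations, 2 cortical and 2 cerebellar. Layer 5a neurons had 7.12, 7.28 and 7.50, stellate and basket neurons 7.13, 6.95 and 7.13, and layer 5b neurons 6.40, 6.76 and 6.76. Purkinje neurons had a lowest value of 6.25, a median of 6.49 and a highest of 7.35. Layer 5a overlapped stellate and basket neurons, and layer 5b overlapped Purkinje neurons. Under the minimum came Golgi neurons at 5.71 ± 0.04 (SD, n = 3), cerebellar astrocytes at 5.36 on each array, layer 6 neurons at 5.07 and cortical astrocytes at 4.92 ± 0.58 (SD, n = 4). Of the unbound tissues only brainstem (6.31, 6.19 and 6.07) and basal forebrain (6.09, 5.96 and 6.36) had a mean above 6.

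Markers of the leptomeninges were summed beside Slc6a13, since these membranes are where the gene is best known. Of 10 such markers 6 were above 6 in layer 5a, 5 in layer 5b, 4 in stellate and basket neurons and none in Purkinje neurons. Their log2 sums were 11.25 to 11.94 in layer 5a and 10.39 to 10.99 in layer 5b, against 8.62 to 10.21 in unbound cortex. They were 10.07 to 10.39 in stellate and basket neurons and 5.49 to 5.55 in Purkinje neurons, against 11.22 to 11.77 in unbound cerebellum. In the cortical fractions the markers were therefore above the unbound level and in the cerebellar fractions below it. Their part in the Slc6a13 values of the cortical fractions was not tested.

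Abat, like Gad1, was above 6 in all 24 populations, with means from 6.50 to 13.43 and a median of 10.85. It did not follow the GABA neurons as closely. Drd1+ medium spiny neurons had 13.37, 13.54 and 13.37, Drd2+ 13.27, 13.23 and 13.27, and layer 5a 13.002, 13.002 and 12.87. Every medium spiny array lay above every layer 5a array, and Drd1+ above Drd2+. Layer 5b neurons and cortical astrocytes came next, the astrocytes with 11.96, 11.84, 11.52 and 12.19. Stellate and basket neurons (11.725, 11.77 and 11.87) and layer 6 neurons (11.79, 11.50 and 11.92) followed. Cerebellar astrocytes had 11.51, 11.29 and 11.45, and Bergmann glia 11.58, 11.16 and 10.97. Both overlapped striatal cholinergic neurons (11.47, 11.51 and 11.19).

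At the other end Abat was low in Pnoc+ neurons (8.65, 8.34 and 8.19), a GABA population, and lowest in Cck+ neurons (5.93, 6.66 and 6.89). Granule neurons had 8.49 ± 0.09 (SD, n = 3), and spinal cholinergic neurons 8.45 on each array. Over the 24 means Abat correlated with Gad1 at 0.53, Gad2 at 0.51 and Slc32a1 at 0.37, with the same limits as above. Cortical astrocytes ranked 5 for Abat and 23 for Gad1, and Pnoc+ neurons 23 for Abat and 11 for Gad1.

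**Figure D2:**
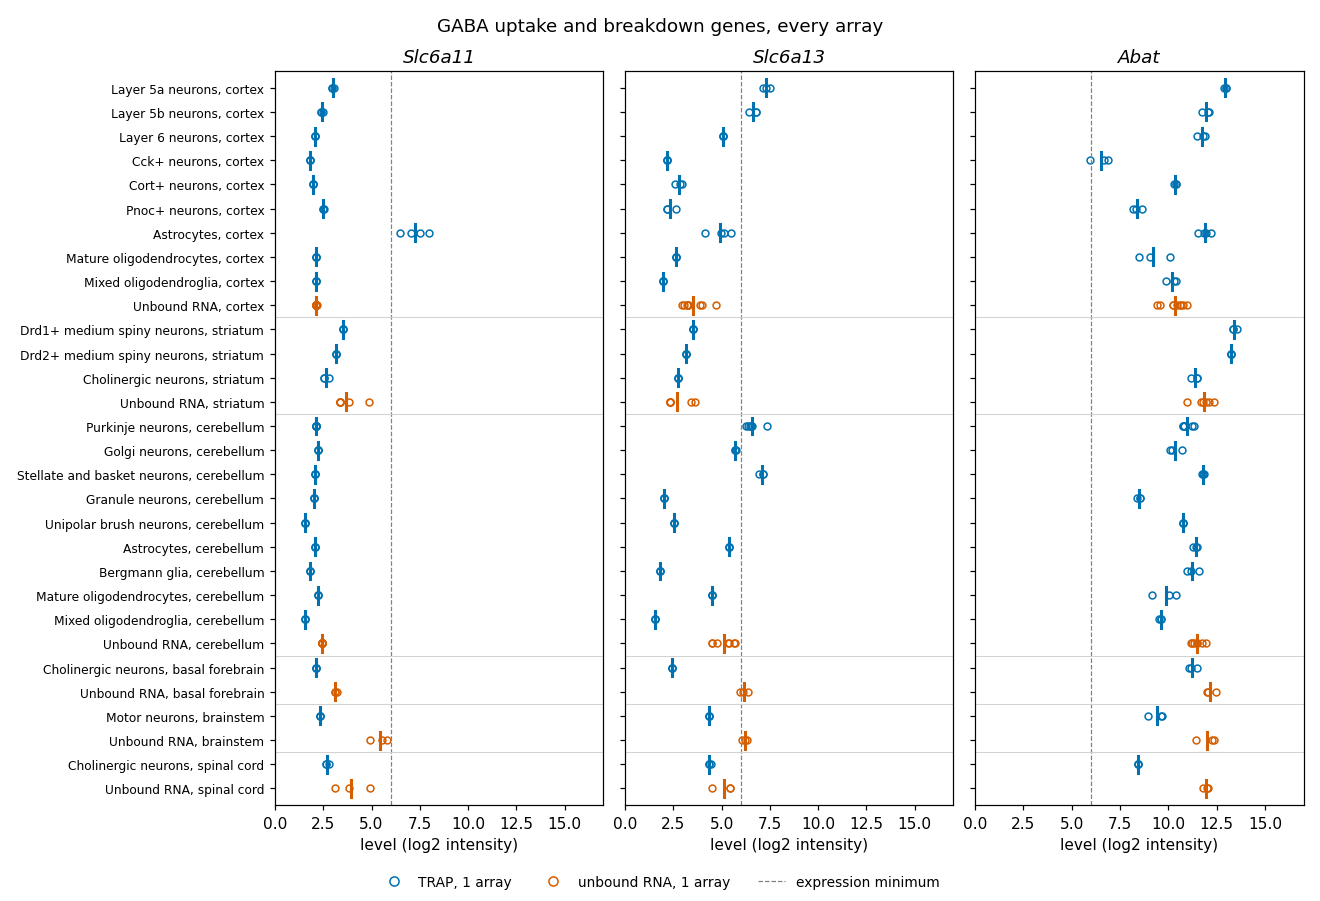
Levels of Slc6a11, Slc6a13 and Abat (log2 intensity, x axis) in every array, with TRAP populations above the unbound RNA of their tissue (rows); circles are arrays, bars are group means and the dashed line is the expression minimum of 6. Slc6a11 passed 6 in 1 population, Slc6a13 in 4 and Abat in 24.

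**Figure D3:**
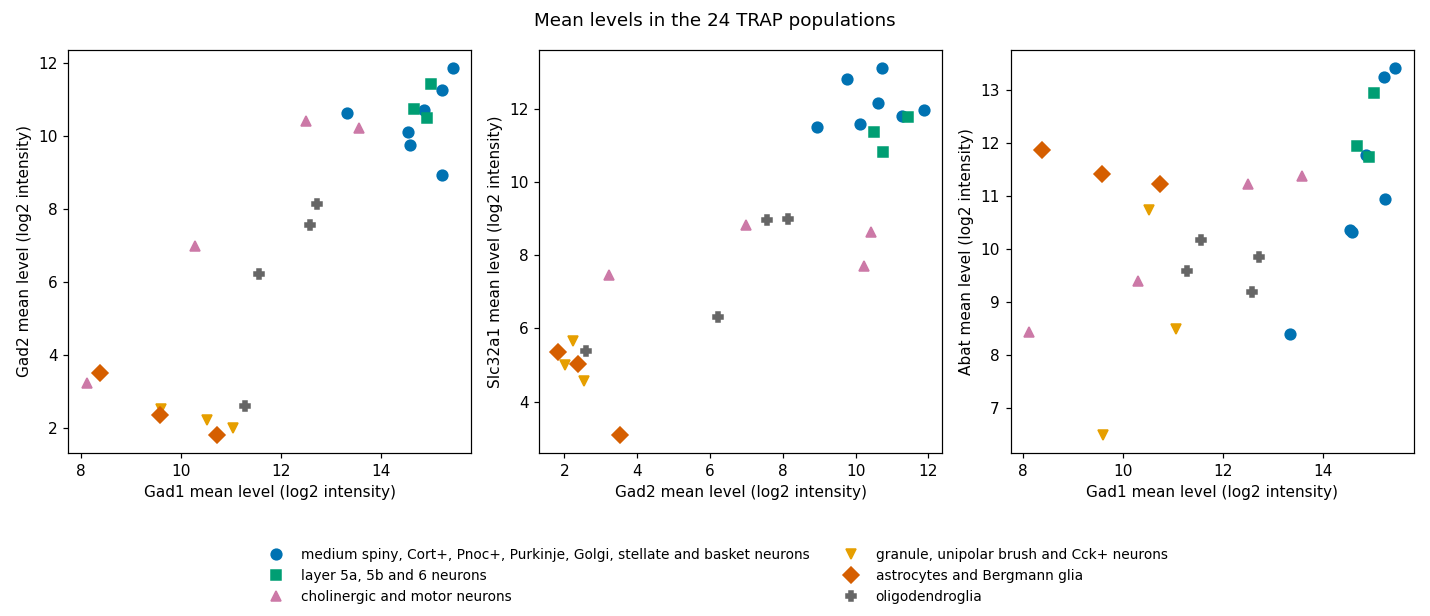
Mean level of Gad2 against Gad1, Slc32a1 against Gad2 and Abat against Gad1 (log2 intensity on both axes), 1 point for each of the 24 TRAP populations, with symbols for 6 kinds of cell. The first pair has r = 0.88, the second 0.90 and the third 0.53, and in the third the astrocytes and Bergmann glia lie high on Abat at low Gad1.

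Whether a message was enriched in a cell type was read from TRAP against the unbound RNA of the same tissue. Over all genes and populations 18.4% of tests were called higher in TRAP and 32.4% lower, so a lower call is common. Gad1 was called higher in 3 populations and lower in 14, Gad2 in 2 and 13, Slc32a1 in 6 and 13, and Abat in 6 and 9, of 24 each. Slc6a13 was tested in 6 populations, higher in 4 and lower in 2, and Slc6a11 in 1, where it was higher. These genes were above 6 on a single side of each test, which fixed the direction, so those counts are a description.

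Slc32a1 gave the clearest enrichment in inhibitory neurons. In Pnoc+ neurons it was 4.69-fold higher than in unbound cortex (log2 difference 2.23, SE 0.22, adjusted p = 8.41e-16), and all 3 arrays lay above all 9 unbound arrays, whose lowest, median and highest values were 9.49, 9.82 and 10.73. In Cort+ neurons it was 3.15-fold higher (1.66, SE 0.22, adjusted p = 6.85e-10), again without overlap. In stellate and basket neurons it was 4.10-fold higher than in unbound cerebellum (2.03, SE 0.23, adjusted p = 3.22e-13) and in Golgi neurons 3.29-fold (1.72, SE 0.23, adjusted p = 6.96e-11). The unbound cerebellar arrays, with a median of 11.07 and a highest value of 11.43, lay below all of these. Of all genes tested 2.92% were called higher in Pnoc+, 12.9% in Cort+, 9.27% in stellate and basket and 4.41% in Golgi neurons. These 4 calls held under quantile normalization. In Purkinje neurons the difference was 0.40 (SE 0.18, adjusted p = 0.0354), under 2-fold, and the arrays overlapped.

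Gad1 was not called in those 4 populations. It differed by 0.89 (SE 0.27, adjusted p = 0.00389) in Cort+ neurons, -0.32 in Pnoc+, 0.51 in stellate and basket and 0.23 in Golgi neurons. Purkinje neurons had 0.88 (SE 0.22, adjusted p = 0.000195), 1.85-fold, short of the 2-fold required, and was called without scaling (1.26). Gad2 was called higher in stellate and basket neurons, 2.52-fold (1.33, SE 0.21, adjusted p = 4.55e-08), where the 3 arrays (10.70, 10.78 and 10.70) lay above unbound arrays running up to 9.68. Quantile normalization added Gad2 calls in Golgi (2.15) and Pnoc+ neurons (1.44).

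In the layer fractions some GABA genes were called higher than in unbound cortex, though these neurons use glutamate. The share of all genes called higher was 60.7% in layer 5a, 36.7% in layer 5b and 30.8% in layer 6. Gad1 was called in layer 5a (1.36, SE 0.27, 2.57-fold, adjusted p = 3.16e-06), layer 6 (1.26, SE 0.27, 2.40-fold, adjusted p = 2.23e-05) and layer 5b (1.02, SE 0.27, 2.03-fold, adjusted p = 0.000458). The unbound cortex arrays ran from 12.94 through a median of 13.53 to 14.66, overlapping layer 5b but not layers 5a and 6. Slc32a1 was called in layer 5a (1.84, SE 0.22, adjusted p = 2.58e-12) and layer 6 (1.45, SE 0.22, adjusted p = 1.66e-08), and Gad2 in layer 5a alone (1.12, SE 0.21, adjusted p = 8.75e-07). For Gad2 the highest unbound cortex array, at 11.92, lay above every layer 5a array.

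Much of this moved with the median gene of these fractions. Relative to it Gad1 differed by 0.06 in layer 5a, 0.66 in layer 6 and 0.34 in layer 5b, and Slc32a1 by 0.53 and 0.84 in layers 5a and 6. For Gad2 in layer 5a this relative difference was -0.19. Under quantile normalization none of these calls remained, with Gad1 at 0.67, 0.78 and 0.72 in layers 5a, 6 and 5b, Slc32a1 at 0.80 and 0.97 in layers 5a and 6, and Gad2 at 0.02. Without layer 5b replicate 3, Gad1 in that layer was at 0.85 and no longer called. Without scaling Gad1 (0.85) and Gad2 (0.61) in layer 5a and Gad1 (0.81) in layer 5b lost their calls.

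Few interneuron markers were called higher in the same fractions. In layer 5a 1 of 6 tested was called higher and 0 lower, in layer 5b 0 and 3 of 5, and in layer 6 0 and 4 of 5. Of all genes 2.31% were called lower in layer 5a, 4.92% in layer 5b and 4.53% in layer 6. Their log2 sums were 13.06 to 13.33 in layer 5a, 11.80 to 12.19 in layer 5b and 10.74 to 11.80 in layer 6, against 12.86 to 13.77 in unbound cortex. In Cort+ and Pnoc+ neurons the sums were 15.17 to 15.42 and 15.58 to 15.69, with 4 of 5 markers called higher in Cort+ (12.9% of all genes) and 3 of 6 in Pnoc+ neurons (2.92%).

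Medium spiny neurons showed little enrichment of Gad1, Gad2 and Slc32a1 over unbound striatum. They are the most common neurons of that tissue, and the bearing of this on the differences was not tested. Gad1 differed by 0.68 (SE 0.28, adjusted p = 0.0266) in Drd1+ and 0.47 (SE 0.28, adjusted p = 0.149) in Drd2+ neurons, Gad2 by 0.92 (SE 0.22, adjusted p = 0.000154) and 0.32 (SE 0.22, adjusted p = 0.198), and Slc32a1 by -0.33 and -0.50, none called. Against the unbound arrays of its own line Drd1+ passed for Gad1 (1.036) and Gad2 (1.035). Without scaling Slc32a1 was called lower in Drd1+ (-1.59, adjusted p = 5.27e-09) and Drd2+ neurons (-1.38, adjusted p = 2.15e-07). Abat was called in both, 3.04-fold in Drd1+ (1.60, SE 0.24, adjusted p = 1.11e-08) and 2.70-fold in Drd2+ (1.43, SE 0.24, adjusted p = 2.51e-07), where the unbound arrays reached 12.35. Of all genes 29.8% were called higher in Drd1+ and 16.8% in Drd2+ neurons. For Abat no medium spiny array overlapped the unbound range. Both Abat calls were lost without scaling, at 0.34 (adjusted p = 0.197) in Drd1+ and 0.55 (adjusted p = 0.034) in Drd2+ neurons.

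Abat was also called higher in layer 5a (6.19-fold), layer 5b (3.09-fold) and layer 6 (2.66-fold), and in cortical astrocytes, 2.94-fold (1.55, SE 0.20, adjusted p = 5.64e-11). In cortical astrocytes the 4 arrays lay above unbound arrays with a lowest, median and highest value of 9.44, 10.45 and 10.95, and 33.0% of all genes were called higher. In cerebellar astrocytes and Bergmann glia it was not called, at -0.07 and -0.25. Under quantile normalization the layer 6 value (0.94) fell short of 2-fold and the others held.

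Slc6a11 in cortical astrocytes was at least 2.38-fold above unbound cortex, taking the unbound side at the minimum of 6 (adjusted p = 1.79e-48). Slc6a13 was at least 2.46-fold higher in layer 5a, 1.56-fold in layer 5b, 2.10-fold in stellate and basket and 1.51-fold in Purkinje neurons by the same rule (adjusted p = 1.17e-27, 3.72e-22, 4.22e-12 and 2.14e-11). In Purkinje neurons 14.0% of all genes were called higher. After quantile normalization layers 5a and 5b lay below the minimum and were not tested, and Golgi neurons were called.

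Deep depletion was seen in glial, Cck+, granule, unipolar brush and spinal cholinergic fractions. Some of the genes were also depleted in the other fractions of the chat line. Gad2 was at least 19.8-fold lower in Cck+ neurons and in cortical astrocytes than in unbound cortex, and at least 10.5-fold lower in granule and unipolar brush neurons, cerebellar astrocytes, Bergmann glia and cerebellar mixed oligodendroglia than in unbound cerebellum. Gad1, still above 6 in these fractions, was 38.9-fold lower in cortical astrocytes (7.56 to 9.15, against 12.94 to 14.66 in unbound cortex), 27.4-fold in cerebellar astrocytes and 16.6-fold in Cck+ neurons. Cck+ neurons also had 14.2-fold less Abat than unbound cortex. Spinal cholinergic neurons had 19.25-fold less Gad1, at least 9.33-fold less Gad2, 15.6-fold less Slc32a1 and 11.2-fold less Abat than unbound spinal cord, without overlap. In striatal cholinergic neurons Slc32a1 ran from 7.10 to 8.40, against 11.997 to 12.58 in unbound striatum. It ran from 8.69 to 8.99 in brainstem motor neurons, against 11.39 to 11.84 in unbound brainstem. Basal forebrain cholinergic neurons had 8.58 to 8.68, against 11.98 to 12.04 in unbound basal forebrain. In mature oligodendrocytes Gad1 was 3.09-fold lower in cerebellum (-1.63, adjusted p = 1.4e-07) and 2.10-fold in cortex (-1.07, adjusted p = 0.00022), the second at -0.98 and not called under quantile normalization. Lower calls were frequent among all genes of these fractions, at 22.8% in Cck+ neurons, 31.5% in cortical and 48.6% in cerebellar astrocytes, 38.0% in granule and 37.5% in unipolar brush neurons, and 53.4% in spinal cholinergic neurons. They made up 39.5% in Bergmann glia, 39.1% in cerebellar mixed oligodendroglia and, for mature oligodendrocytes, 53.3% in cerebellum and 32.8% in cortex. For the other chat fractions the share was 30.9% in striatum, 32.3% in brainstem and 41.5% in basal forebrain.

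The 6 pan-neuronal markers were at or above 6 in mature oligodendrocytes, with log2 sums of 14.53 to 15.65 in cerebellum and 14.51 to 14.85 in cortex. The sums were 16.57 to 16.99 in unbound cerebellum and 15.37 to 16.54 in unbound cortex. In astrocytes they were 13.23 to 13.36 in cerebellum and 11.73 to 13.31 in cortex. The part of neuronal RNA in the GABA genes of glial fractions was not tested.

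**Figure D4:**
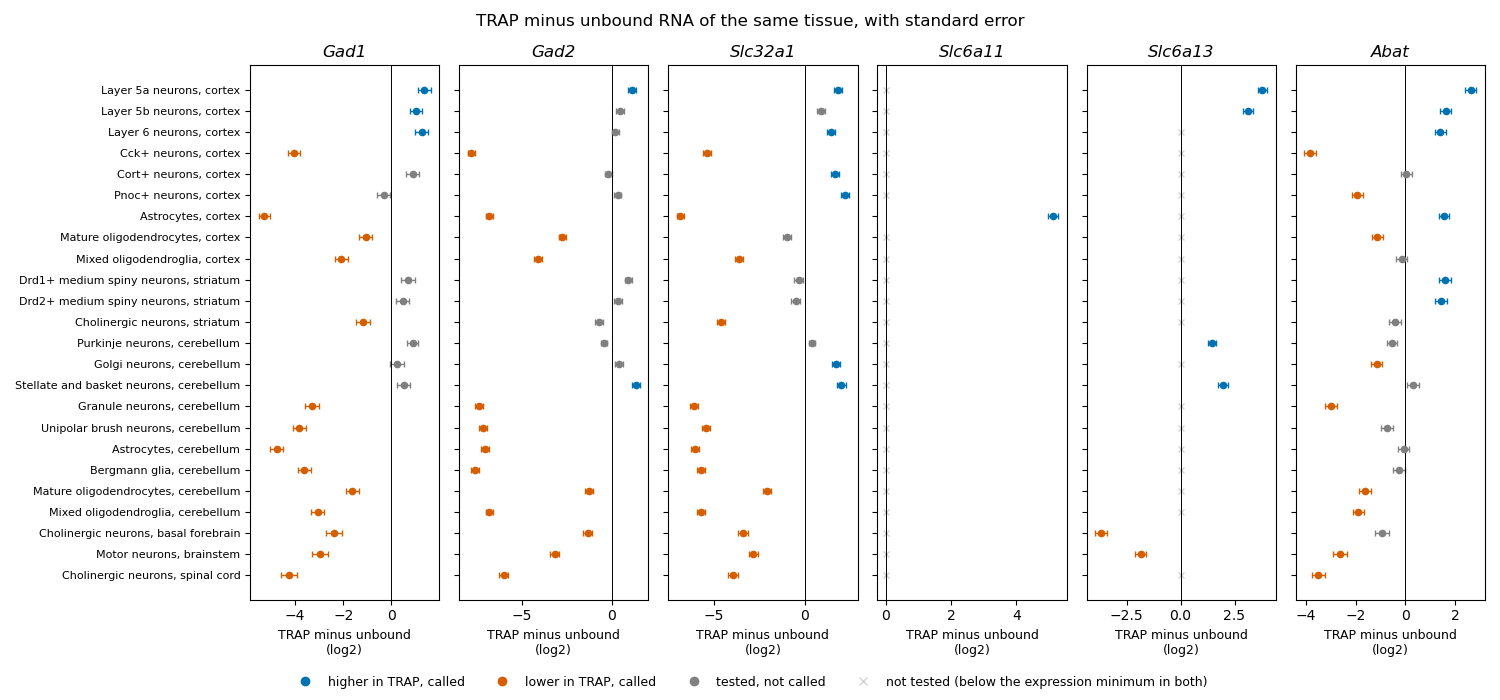
Log2 difference TRAP minus unbound RNA of the same tissue (x axis, with its standard error) for the 6 genes in the 24 populations (rows); blue marks genes called higher in TRAP, orange those called lower, grey those tested and not called, and crosses at 0 those not tested. Slc32a1 was called higher in 6 populations, Abat in 6, Slc6a13 in 4, Gad1 in 3, Gad2 in 2 and Slc6a11 in 1.

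Populations were then compared with each other, asking which inhibitory and excitatory neurons differ in these genes. A gene entered such a comparison only if it was above unbound RNA in a compared population, and a call also needed that on its higher side. A gene under 6 on one side, given with an "at least" fold, entered through the other side alone, which fixed its direction. In the cerebellum, 5 of the 6 genes were called higher in Purkinje, Golgi and stellate and basket neurons than in granule and unipolar brush neurons, where 14.7% of all genes were called higher and 40.8% either way. Gad1 was 17.3-fold higher (4.11, SE 0.20, adjusted p = 1.54e-32), with arrays from 14.37 to 15.37 in the inhibitory neurons, against 10.18 to 11.67 in granule and unipolar brush neurons. Gad2 was at least 14.1-fold higher (adjusted p = 1.1e-60), from 8.73 to 10.78 in the inhibitory neurons, against 2.02 to 2.23 in the excitatory ones.

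Slc32a1 was at least 89.2-fold higher (adjusted p = 2.98e-56), from 11.17 to 13.15 in the inhibitory neurons, against 4.90 to 6.07 in the excitatory ones, and Slc6a13 at least 1.37-fold. No inhibitory array of these 4 genes overlapped an excitatory one. Abat was 2.65-fold higher on average (1.41, SE 0.17), but every unipolar brush array (10.74) lay above the Golgi arrays, which ran from 10.11 to 10.69, and below the Purkinje arrays, which began at 10.75.

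Among the cerebellar inhibitory neurons, Purkinje cells had less Gad2 and Slc32a1 than stellate and basket neurons. Both were called, Gad2 at 3.43-fold lower (-1.78, SE 0.22, adjusted p = 1.17e-11) and Slc32a1 at 3.10-fold lower (-1.63, SE 0.23, adjusted p = 1.61e-09), where 50.7% of all genes were called. Gad2 ran from 8.73 to 9.11 in Purkinje neurons, against 10.70 to 10.78 in stellate and basket neurons. Slc32a1 ran from 11.17 to 11.79 in Purkinje neurons, against 13.08 to 13.15 in stellate and basket neurons, so neither gene overlapped. Gad1 did not pass the test (0.37, SE 0.28, adjusted p = 0.23). Relative to the median gene the differences were -1.99 for Gad2 and -1.85 for Slc32a1. Golgi against stellate and basket neurons gave 2 calls, both lower, Slc6a13 (at least 2.10-fold) and Abat (-1.46), where 63.9% of all genes were called, 55.2% lower. Neither was called under quantile normalization, with Abat at -0.46 and Slc6a13 at 0.18. Gad1 (-0.28), Gad2 (-0.95) and Slc32a1 (-0.32) were not called between Golgi and stellate and basket neurons.

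In the forebrain, medium spiny neurons were set against the 3 layer fractions. Gad1 differed by 0.47 (SE 0.21), Gad2 by 0.68 (SE 0.16) and Slc32a1 by 0.56 (SE 0.17), all higher in medium spiny neurons and none 2-fold. Without scaling these 3 values turned round, to -0.61, -0.40 and -0.51, again without a call. Abat was called, 2.18-fold higher (1.12, SE 0.18, adjusted p = 3.26e-08), from 13.23 to 13.54 in medium spiny neurons, against 11.50 to 13.002 in the layer fractions. Slc6a13 was called at least 1.26-fold lower, so 2 genes were called where 39.2% of all genes were. After quantile normalization Slc6a13 lay below the minimum and was not tested, and without scaling Abat (0.05) was not called. Without layer 5a the differences were 0.54, 0.94 and 0.79 for Gad1, Gad2 and Slc32a1, and 1.495 for Abat, with the same 2 genes called.

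Cort+ and Pnoc+ neurons against the layer fractions gave 2 calls, Abat (-2.84, 7.16-fold lower) and Slc6a13 (at least 1.26-fold lower), where 69.9% of all genes were called, 68.2% lower. Gad1 differed by -0.93 (SE 0.21, adjusted p = 3.74e-05), Gad2 by -0.53 (SE 0.16) and Slc32a1 by 0.55 (SE 0.17), none called. The median gene was at -1.43 here, so relative to it Gad1 was at 0.50, Gad2 at 0.90 and Slc32a1 at 1.98. Abat fell more than the median gene, but part of its difference was shared with that gene. Under quantile normalization Slc32a1 was called higher (1.66), and Slc6a13 was not tested. Without layer 5a the values were -0.86, -0.26 and 0.77, the calls as before.

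Pnoc+ neurons differed from Cort+ neurons in Gad1, 2.31-fold lower (-1.21, SE 0.33, adjusted p = 0.000509), and in Abat, 3.91-fold lower (-1.97, SE 0.28, adjusted p = 7.26e-10), where 69.9% of all genes were called, 66.8% lower. The median gene differed by -1.60 here, so Gad1 fell less than the median gene and Abat more. Gad1 was 13.32 to 13.35 in Pnoc+, against 14.48 to 14.60 in Cort+ neurons. Gad2 (0.51, SE 0.25) and Slc32a1 (0.57, SE 0.27) were higher in Pnoc+ neurons without a call. This comparison depended on the scaling: under quantile normalization Gad2 (1.83) and Slc32a1 (1.64) were called higher in Pnoc+ neurons, Gad1 (-0.62) was not called and Abat was not tested. Without scaling 1 of the 2 calls remained, that of Gad1.

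Striatal cholinergic neurons had less Gad1, Gad2 and Abat than medium spiny neurons. Gad1 was 3.39-fold lower (-1.76, SE 0.28, adjusted p = 3.31e-08), from 13.35 to 13.68 in cholinergic neurons, against 15.17 to 15.48 in medium spiny neurons. Gad2 was 2.54-fold lower (-1.34, SE 0.22, adjusted p = 4.82e-08) and Abat 3.87-fold (-1.95, SE 0.24, adjusted p = 7.43e-12), all 3 without overlap, where 61.0% of all genes were called. Gad2 was at -0.98 and not called under quantile normalization, and without scaling only Abat was called. Slc32a1 differed by -4.19, from 7.10 to 8.40 in cholinergic neurons and from 11.65 to 12.16 in medium spiny neurons, but was above unbound RNA in none of the 3 and so was not tested. Without that requirement its adjusted p was 1.43e-29.

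Glia were set against the neurons of their tissue. Cortical astrocytes had 39.7-fold less Gad1 (-5.31, SE 0.22, adjusted p = 3.24e-38), at least 10.04-fold less Gad2 and at least 21.0-fold less Slc32a1 than the mean of the 6 cortical neuron groups. They had at least 2.38-fold more Slc6a11 and 2.96-fold more Abat (1.57, SE 0.19, adjusted p = 2.19e-12), so 5 genes were called where 62.7% of all genes were. The neuron mean hides a wide range: Abat of Cck+ neurons began at 5.93 and that of layer 5a reached 13.002, so the astrocyte arrays (11.52 to 12.19) lay within it. Gad2 of Cck+ neurons (2.52 on each array) lay below every astrocyte array, and their Slc32a1 (4.45 to 4.63) was under 6 like that of the astrocytes. Without layer 5a these 5 calls remained and Slc6a13 was called too, though it averaged under the minimum on both sides. Cerebellar astrocytes and Bergmann glia were lower than the mean of the 5 cerebellar neuron groups in Gad1 (8.56-fold, adjusted p = 8.56e-27), Gad2 (at least 1.67-fold) and Slc32a1 (at least 12.3-fold), where 54.5% of all genes were called. Slc6a13 was called lower too, but averaged under 6 on both sides and has no fold. Not every neuron group lay higher: Gad1 averaged 10.73 in Bergmann glia and 10.52 in unipolar brush neurons, and granule and unipolar brush neurons were under 6 for Gad2 and Slc32a1 as the glia were. Abat did not reach 2-fold there (0.87, SE 0.16).

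Astrocytes and Bergmann glia together had 3.49-fold more Abat than oligodendroglia (1.80, SE 0.14, adjusted p = 5.36e-20), from 10.97 to 12.19 in astrocytes and Bergmann glia, against 8.48 to 10.39 in oligodendroglia, without overlap. Slc6a11 was called as well, though both sides averaged under 6, and 42.9% of all genes were called. Between cerebellar and cortical astrocytes 2 of the 6 genes were tested and Slc6a11 was called (at least 2.38-fold lower in cerebellum), where 29.1% of all genes were called. Abat differed by -0.46 (adjusted p = 0.119). Between Bergmann glia and cerebellar astrocytes (16.7% of all genes called) and between mixed oligodendroglia and mature oligodendrocytes (43.1%), none of the 6 was tested. No gene that reached 6 there was above unbound RNA. Slc6a13 was 0.24 above unbound RNA in cerebellar astrocytes, but under 6 there and in Bergmann glia. Without the requirement of TRAP over unbound RNA, Gad1 (2.34-fold), Gad2 (at least 3.34-fold) and Slc32a1 (at least 7.16-fold) were lower in mixed than in mature cells.

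The unbound RNA of whole tissues differed as well. Striatum had 5.17-fold more Slc32a1 than cortex (2.37, SE 0.17, adjusted p = 8.2e-22), from 11.997 to 12.58 in striatum, against 9.49 to 10.73 in cortex. It also had 2.16-fold more Gad1 (1.11, SE 0.21) and 2.82-fold more Abat (1.49, SE 0.18), where 25.2% of all genes were called. Gad1 of the tissues overlapped, and it was not called under quantile normalization (0.65) or without scaling (0.79). Cerebellum had more Slc32a1 (1.15, SE 0.17) and Abat (1.16, SE 0.17) than cortex, where 55.3% of all genes were called, and the median gene differed by 0.93. Neither was called under quantile normalization (0.42 and 0.45) or without scaling (0.57 for both), while Gad2 was then called lower in cerebellum (-1.85 and -1.503).

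The change from unbound to TRAP was also compared between cortex and cerebellum for the glia sampled in both. For astrocytes it differed in Abat (1.55 in cortex and -0.07 in cerebellum, difference 1.62, SE 0.31, adjusted p = 2.61e-06), where 61.2% of all genes were called. Slc6a11 was called as well, but it was under 6 in cerebellar astrocytes and in both unbound tissues, so that difference has no secure size. Under quantile normalization Abat (0.80) was not called and Gad1 (-1.16), at -0.51 before, was. Without scaling Gad1 (-1.06) was called too. Slc32a1 was called under both, with TRAP levels under 6 in both astrocyte groups. For mature oligodendrocytes it differed in Gad2 (-2.75 in cortex and -1.25 in cerebellum) and Slc32a1 (-0.96 and -2.09), where 42.4% were called, and under quantile normalization Slc32a1 was not called. For mixed oligodendroglia it differed in Gad2 (-4.09 and -6.79), Slc32a1 (-3.64 and -5.70) and Abat (-0.15 and -1.89), where 53.3% were called. Gad2 and Slc32a1 of the mixed cells lay below 6 in cerebellum, so their differences have no secure size. Gad2 was not called under quantile normalization, and Abat was at 0.80 and not called without scaling.

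Of the other genes of GABA handling, 11 of 14 listed were measured. Entry into a comparison favoured genes enriched in one of its populations, so counts of these lists describe the genes that entered and give no support beyond them. In cerebellar astrocytes and Bergmann glia against cerebellar neurons 7 were tested and called higher, where 33.2% of all genes tested were. Glul (glutamine synthetase) was 27.1-fold higher, the glutamine carrier Slc38a3 at least 10.4-fold, Maob (an amine oxidase that astrocytes use on a side path to GABA) at least 14.3-fold, and Aldh5a1, the next enzyme after Abat, 2.71-fold. In cortical astrocytes against cortical neurons 5 of 9 were higher and 3 lower, where 26.4% of all genes were called higher and 36.3% lower. Glul was 4.37-fold higher, Slc38a3 at least 21.8-fold and Maob at least 8.17-fold, while Slc38a1, a glutamine carrier known from neurons, was 7.24-fold lower and Aldh5a1 was not called (0.16). Against oligodendroglia, astrocytes and Bergmann glia had 6 of 8 higher and 1 lower, Aldh5a1 being 4.68-fold higher. Of all genes 24.6% were called higher and 18.3% lower there.

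Of 17 transcription factors that set GABA neuron fate, 14 were measured. In Pnoc+ neurons 5 of 6 tested were higher than in unbound cortex and 0 lower (median 2.08, against -1.25 for all genes), among them Sp8 (at least 2.50-fold), Npas1 (at least 2.70-fold), Dlx1 (3.17-fold) and Dlx2 (at least 3.78-fold). In Cort+ neurons 4 of 5 were higher. All genes were called higher at 2.92% in Pnoc+ and 12.9% in Cort+ neurons. Against the layer fractions Cort+ and Pnoc+ neurons had 5 of 8 higher and 2 lower, where 1.66% of all genes were called higher and 68.2% lower. Lhx6, a factor of interneurons from the medial ganglionic eminence, was 2.73-fold higher and Dlx1 3.39-fold. Medium spiny neurons against the layer fractions had 3 of 9 higher, Six3 (at least 21.1-fold), Dlx6 (at least 6.62-fold) and Dlx5 (at least 3.33-fold). Another 4 were lower, Lhx6 and Dlx1 among them. Of all genes 12.5% were called higher and 26.6% lower in that comparison. In Purkinje against stellate and basket neurons Lhx1 (6.87-fold) and Lhx5 (3.58-fold), the 2 tested, were both higher, the opposite direction to Gad2 and Slc32a1, where 27.2% of all genes were called higher.

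Of 19 GABA receptor subunits 15 were measured. In cerebellar astrocytes and Bergmann glia against cerebellar neurons 4 of 6 tested were higher and 2 lower, where 33.2% and 21.3% of all genes were: Gabrb1 (at least 30.8-fold), Gabra4 (at least 17.9-fold), Gabra2 (at least 12.2-fold) and Gabrg1 (at least 10.7-fold) rose, and Gabbr1, a subunit of the GABA-B receptor, was 2.68-fold lower. In cortical astrocytes 1 of 9, Gabrg1 (at least 12.2-fold), was higher than in cortical neurons and 5 were lower (26.4% and 36.3% of all genes), among them Gabra5 (at least 17.5-fold) and Gabrd (at least 12.3-fold). Cort+ and Pnoc+ neurons had 8 of 9 lower than the layer fractions, with a median of -1.66, near the -1.43 of all genes tested, of which 68.2% were called lower.

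The genes other than the 6 whose mean levels over the 24 populations followed each of them most closely, among 12385 genes above 6 in at least 1 population, were found by Pearson's r. For Gad1 they were Kcnd3 (0.80), a potassium channel, Lamb1 (0.79) and Hdgfl3 (0.79). For Gad2 they were Zfp618 (0.88), Ttc34 (0.84) and Phf24 (0.82), and for Slc32a1 Etl4 (0.82), Cyp2s1 (0.78) and Reps2 (0.77). Gad2 and Slc32a1 were closer to each other (0.90) than to any of these. For Slc6a11 they were the transcript BE949265 (0.99), Smad6 (0.98) and Fam181a (0.96), each highest in cortical astrocytes. For Slc6a13 they were Slc22a8 (0.76), an organic anion carrier, Tor4a (0.75) and Spg7 (0.74), each highest in layer 5a neurons, and for Abat Adck1 (0.85), Ptpn9 (0.83) and Gorasp1 (0.82). All points share arrays and scaling, and likeness of level says nothing further.

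The second probe set of 2 genes followed the first in part. That of Gad1 correlated with the first at 0.92 over the 24 populations and passed 6 in 12 of them, and that of Gad2 at 0.86, passing 6 in 11. Both had their highest mean in layer 5a neurons (10.82 for Gad1 and 9.59 for Gad2), where the probe sets used had theirs in Drd1+ medium spiny neurons. The other 3 probe sets of Slc32a1 and the second of Slc6a11 and of Abat stayed under 6 in every population, and Slc6a13 had 1.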

How the data were processed

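RNA of 76 TRAP and 31 unbound preparations was amplified over 2 cycles from 15 ng with an Affymetrix protocol and hybridized, per the labels. The authors normalized the replicates of each group together with GCRMA, per the series' design text (its version is not given in the sources used here), and deposited linear intensity values of 45101 probe sets. These fall into 30 sets, so levels set across groups rest on a further scaling. Before deposition nothing else is stated.

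The deposited intensity values were converted to log2 here, and each group was shifted to bring its 18 biotinylated control probe sets to a common mean, as the design text recommends. The groups' control means ran from 10.13 to 11.999. Of the probe sets 34945 had 1 gene symbol in the platform annotation, 932 several and 9224 none, which left 18193 genes. limma 3.58.1 in R 4.3.3 was fitted over all arrays with 1 coefficient for each group and a trended variance prior, and p-values were adjusted over all genes tested. A gene was tested where a compared group reached the minimum of 6. Between populations, at least 1 of those compared also had to show a TRAP enrichment of the gene over its unbound RNA, and a call needed this on the higher side. Where the lower side lay under 6 it was set to 6 and the fold given as a lower bound. Within a group 9.74% to 23.5% of probe sets had identical values on all arrays. The test was checked on simulated data. Promoters and figures were made with Python 3.11.15 (pandas 2.3.3, numpy 2.4.6, matplotlib 3.10.9).

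The genes and lists were chosen with earlier results of these data known. Named are the 6 genes, members of the lists of other GABA genes, receptor subunits, transcription factors and cell markers, and the 3 genes most like each member. Alternatives were no scaling, quantile normalization, no minimum, averaging a gene's probe sets, no requirement of TRAP over unbound RNA, the compared arrays alone, unbound arrays of the same line, single lines, 2 replicate blocks, and each array of groups of 3 or 4 left out. Whether label numbers pair TRAP and unbound arrays was checked in 18 pairs of 7 populations. The deviations correlated at -0.29 to 0.62, 10 of 18 were over 0.1, and 15 of 18 were highest with their own number. They correlated at 0.50 to 0.62 in brainstem motor neurons and 0.32 to 0.50 in basal forebrain, but at -0.29 to 0.07 in spinal cord. Since the populations differed in this, the numbers were not taken as pairs in the main fit.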

Additional observations from a re-analysis of the deposited data

Results flagged for a closer look

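In 28 sets of 1 gene in 1 group of 4 to 9 arrays, an array was looked for that stands apart from the rest by Dixon's test, and 6 sets had one. Chance alone flags about 1 in 20. Gad1 in unbound striatum had 1 low array at 14.05, the next being 14.77. Gad2 in cortical astrocytes had 1 array at 3.87, the next 3.41, both under the expression minimum. Gad2 in unbound cerebellum had 1 array at 9.68, the next 9.43. Slc6a11 had 1 array at 2.16 in unbound cortex, the next 2.13, and 1 at 4.89 in unbound striatum, the next 3.82, all under the minimum. Slc6a13 in Purkinje neurons had 1 array, of line DR166, at 7.35, the next 6.60.

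The change from unbound to TRAP differed between cortex and cerebellum, by the test of that difference in the limma fit, in 7 cases. In astrocytes it was 5.50 for Slc6a11 (adjusted p = 9.28e-37) and 1.62 for Abat (adjusted p = 2.61e-06). In mature oligodendrocytes it was -1.499 for Gad2 (adjusted p = 9.99e-06) and 1.13 for Slc32a1 (adjusted p = 0.00141). In mixed oligodendroglia it was 2.69 for Gad2 (adjusted p = 3.28e-13), 2.06 for Slc32a1 (adjusted p = 1.93e-08) and 1.74 for Abat (adjusted p = 2.2e-06). All are cortex minus cerebellum on the log2 scale. Of all genes tested 61.2% were called in astrocytes, 42.4% in mature oligodendrocytes and 53.3% in mixed oligodendroglia. The median gene differed by 1.04, 0.62 and 0.86 there, so calls of this kind were common. Slc6a11 was under the minimum of 6 in every group of this comparison but cortical astrocytes, and in cerebellar mixed oligodendroglia Gad2 and Slc32a1 were, so these 3 differences have no secure size.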

How the results depend on the processing

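Quantile normalization kept direction and call for 132 of 165 values, no scaling for 145 of 168, no minimum for 210 of 228, the mean of all probe sets for 95 of 127, no requirement of TRAP over unbound RNA for 49 of 58, own-line unbound arrays for 97 of 103, the compared arrays alone for all 55, and single lines for all 103 with either line. Direction was compared only where a call was made. A value that the main fit did not test was counted as kept where the alternative did not call it. This bears most on no minimum and on no requirement of TRAP over unbound RNA, which tested more values than the main fit. Counts of genes called are given with the main count in brackets. Under quantile normalization Golgi against stellate and basket neurons had 0 (2), medium spiny neurons against the layers 1 (2), the mature oligodendrocyte difference between tissues 1 (2), unbound cerebellum against cortex 1 (2), and Gad1 was higher in 0 populations (3). Abat in Golgi neurons then reversed to 0.28 (adjusted p = 0.199 in limma) and Slc6a13 in Golgi against stellate and basket neurons to 0.18 (adjusted p = 0.512). Without scaling the astrocyte difference between tissues had 4 (2), the mature oligodendrocyte one 1 (2), medium spiny against layers 1 (2), Pnoc+ against Cort+ 1 (2), striatal cholinergic against medium spiny 1 (3), unbound cerebellum against cortex 1 (2), and Gad2 was higher in 1 population (2). Without a minimum Bergmann glia against cerebellar astrocytes had 1 (0). Without the requirement of TRAP over unbound RNA that comparison had 1 (0), cerebellar against cortical astrocytes 2 (1), astrocytes and Bergmann glia against oligodendroglia 5 (2) and mixed against mature oligodendrocytes 3 (0).

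The mean of all probe sets takes in weak ones. Populations with a higher TRAP level were then 8 for Gad1 (3), 4 for Gad2 (2), 0 for Slc32a1 (6), 0 for Slc6a11 (1) and 3 for Abat (6). Cortical astrocytes against neurons had 2 (5), Purkinje, Golgi and stellate and basket against granule and unipolar brush neurons 3 (5), unbound striatum against cortex 0 (3) and cerebellar against cortical astrocytes 0 (1). Mixed against mature oligodendrocytes had 1 (0). Purkinje against stellate and basket, Pnoc+ against Cort+, astrocytes and Bergmann glia against oligodendroglia, the mature oligodendrocyte difference and unbound cerebellum against cortex had 1 (2) each. Gad2 reversed to 1.21 in cerebellar mature oligodendrocytes (adjusted p = 8.54e-06), 0.12 in striatal cholinergic against medium spiny neurons, and -1.93 and -0.16 in the astrocyte and mixed oligodendroglia differences between tissues. The cause was not tested.

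Leaving out 1 array at a time, in 79 refits, kept 999 of 1011 values, with 5 calls lost, 7 gained and none reversed. The counts ranged from 2 to 3 for Gad1 populations, 6 to 7 for Slc32a1 populations, 1 to 2 for the mature oligodendrocyte difference and 3 to 4 for the mixed one. Without cerebellar mature oligodendrocyte replicate 3, Gad2 (-0.95) and the Slc32a1 difference (0.66) lost their calls, as did Gad1 (-0.90) and Abat (-0.77) without the cortical replicate 3. With label numbers as a replicate block 168 of 171 values kept their call. In a separate fit with each matched preparation as a block, 28 of 30 values kept theirs. Calls of the 6 genes, added up over the 7 populations with numbered partners, were then 22 (20 without the block). Leaving out layer 5a, an alternative chosen after seeing the data, kept 15 of 16 values. Gad2 was then higher in 1 population (2), a drop fixed in advance because layer 5a was 1 of those 2. Below 6 no order is secure, and with 3 arrays in most groups small differences may go uncalled.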
